A study of Mus musculus with 4 samples.

Results

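Nuclear oxidative phosphorylation genes are the subunit genes of the 5 respiratory enzyme complexes that lie in the nuclear genome. They were taken by symbol, as those that begin with Ndufa, Ndufb, Ndufc, Ndufs or Ndufv and a digit, Sdha to Sdhd, Uqcr, Cox with a digit from 4 to 8, or Atp5. The rule gave 84 of the 24411 genes listed, with 37 in complex I, 4 in complex II, 8 in complex III, 18 in complex IV and 17 in complex V, and 0 symbols containing -ps had to be left out. Of these, 4 genes (Atp5s, Atp5sl, Cox7a2l and Ndufa4l2) match by symbol without being known as fixed subunits. The libraries come from morulae of the outbred ICR mouse stock, produced by in vitro fertilization and cultured in KSOM with bovine serum albumin. In the siPwp1 group, siRNA against Pwp1 was electroporated at the 1-cell stage, at 3 hpi. In the siControl group, embryos received control siRNA at the same time. Both groups were collected as morulae at 72 hpi, with 2 libraries per group, each a pool of 10 embryos made into a SMART-Seq library from polyadenylated RNA. The labels give no genotype beyond the stock, and which siRNA molecules were used is not given in the sources used here.

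The respiratory chain of the inner mitochondrial membrane passes electrons from NADH (through complex I) and succinate (through complex II) to ubiquinone, then through complex III and cytochrome c to complex IV, which reduces oxygen. Complexes I, III and IV pump protons, and complex V, the ATP synthase, makes ATP from the proton gradient. Most subunits are nuclear genes whose products are imported, while the mitochondrial genome encodes a few central ones, and 0 mitochondrial genome genes are listed in the files. In the mouse, the cleaving embryo relies on pyruvate and oxidative metabolism before glucose use increases around compaction and blastocyst formation.

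The expected counts summed to between 28981358 and 48765229 per library, and 13585 genes passed the filter on low counts (edgeR's filterByExpr), among them 81 of the 84 members. Pwp1, the targeted gene, had 36.9 and 37.2 CPM in siPwp1 replicates 1 and 2, against 215.4 and 364.9 CPM in siControl replicates 1 and 2. CPM are counts scaled to library size with TMM, edgeR's trimmed mean of M-values. The edgeR quasi-likelihood log2 fold change of Pwp1 was -2.97 (SE 0.33, adjusted p = 0.22 over all genes, after Benjamini-Hochberg adjustment). Of 9 embryo markers, 0 were at 0 in all libraries. Their summed level was 11271 and 13816 CPM in siPwp1, against 12197 and 12658 CPM in siControl, nearly all of it from Dppa3, and single markers varied more (Nanog had 197.9 and 273.1 CPM in siPwp1, against 422.4 and 291.0 CPM in siControl). Markers of sperm (5 genes, Akap4 at 0 throughout) summed to at most 1.21 CPM and those of cumulus cells (5 genes, Ptx3 and Cyp19a1 at 0 throughout) to at most 0.356 CPM in any library. Blood markers (5 genes, Hbb-bs and Hbb-bt at 0 throughout) summed to 39.3 and 41.4 CPM in siPwp1, against 11.5 and 32.3 CPM in siControl, nearly all of it from Hba-a2.

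Expression of the respiratory chain was high and uneven. The 84 genes held 5.54% and 4.52% of all TPM in siPwp1 replicates 1 and 2, against 5.87% and 4.67% in siControl replicates 1 and 2. TPM divide by transcript length within a library and are used wherever levels of different genes are compared. The share was 5.03% ± 0.724 in siPwp1 and 5.27% ± 0.849 in siControl (SD, n = 2), so the groups overlapped. Summed by complex, with genes placed by symbol, complex I held 15346 and 12296 TPM in siPwp1, against 15945 and 12742 TPM in siControl. That total includes Ndufa4, whose product is known as a subunit of complex IV. Ndufa4 held 1519 and 1087 TPM in siPwp1, against 1668 and 1123 TPM in siControl. Complex IV held 15741 and 12748 TPM in siPwp1, against 16286 and 12636 TPM in siControl. Complex V, the ATP synthase, was close to both in total, at 15953 and 12969 TPM in siPwp1, against 16588 and 13641 TPM in siControl. Complex III held 7895 and 6763 TPM in siPwp1, against 9442 and 7281 TPM in siControl. Complex II, which has only 4 subunits and no mitochondrially encoded one, held 465.4 and 392.4 TPM in siPwp1, against 469.3 and 430.0 TPM in siControl. In all 5 complexes the siPwp1 and siControl values overlapped, and replicate 2 was the lower library of each group. These are bulk pools, in which fewer cells of a type and less RNA per cell cannot be told apart.

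**Figure D1:**
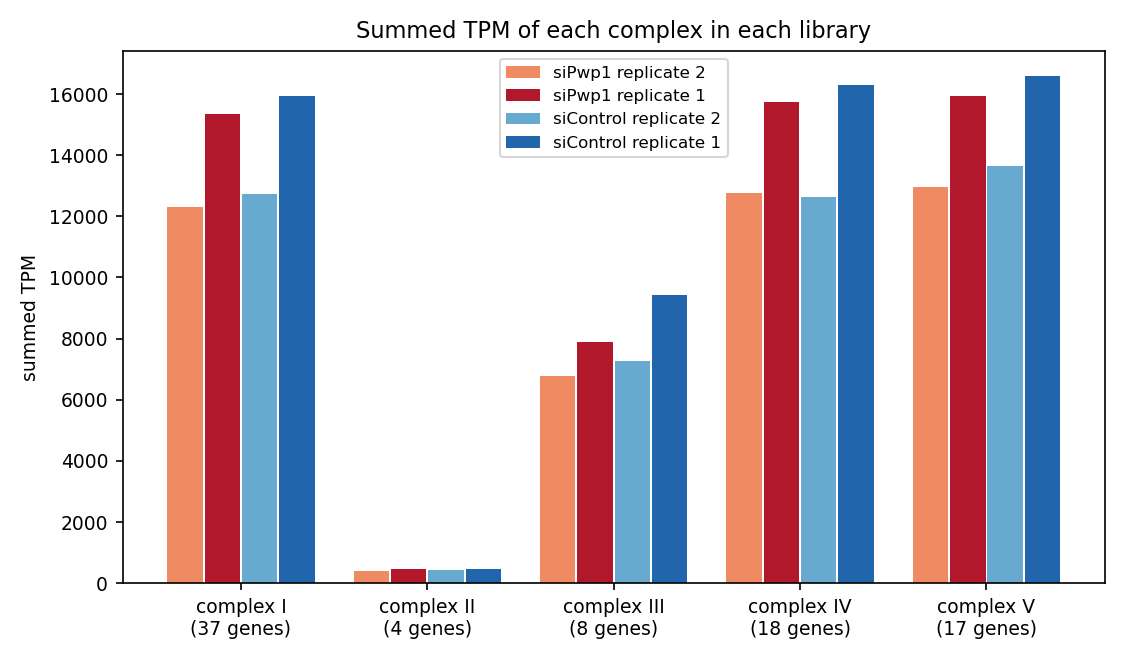
Summed TPM (vertical axis) of each complex in the 4 libraries, with genes placed by symbol (Ndufa4 in complex I) and 1 bar per library. In each complex both replicate 2 bars are shorter than the replicate 1 bar of their own group, as for complex I at 12296 against 15346 TPM in siPwp1.

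Among single genes, 67 of the 84 had a mean over 100 TPM and 18 a mean over 1000 TPM. The highest was Cox7c, a small membrane subunit of complex IV, at 3167 ± 572.6 TPM in siPwp1 and 3198 ± 487.5 TPM in siControl (SD, n = 2), which ranked 42 among all genes by mean TPM. In complex V it was Atp5j, coupling factor 6 of the peripheral stalk, at 2518 ± 287.8 TPM in siPwp1 and 2873 ± 450.9 TPM in siControl. In complex III it was Uqcrb, a subunit near the ubiquinone site, at 2239 ± 408.7 TPM in siPwp1 and 2845 ± 503.1 TPM in siControl. In complex I it was Ndufc1, an accessory membrane subunit, at 1219 ± 247.3 TPM in siPwp1 and 1530 ± 296.9 TPM in siControl, and in complex II it was Sdhb, the iron-sulfur subunit, at 225.4 ± 44.5 TPM in siPwp1 and 240.2 ± 63.2 TPM in siControl. In each of these genes the groups overlapped. Of the genes named for their level or their difference, Atp5f1, Atp5j, Atp5l, Cox4i1, Cox6c, Ndufa3, Ndufa9, Ndufa11, Ndufa13, Ndufb6, Uqcrb and Uqcrc2 are among 25 members with an exon of another gene on the opposite strand, so part of their reads could belong to that gene.

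Several of the larger subunits stood far lower per length than these small ones. Sdha, the flavoprotein of complex II, was at 11 ± 3.5 TPM in siPwp1 and 14.1 ± 0.544 TPM in siControl (SD, n = 2). Uqcrc1, a core protein of complex III, was at 175.4 ± 4.07 TPM in siPwp1 and 154.7 ± 61.3 TPM in siControl. The 7 nuclear core subunits of complex I, which carry its flavin and iron-sulfur clusters, had a median of 205.7 TPM. The 29 other tested genes placed in complex I by symbol, Ndufa4 among them, had a median of 352.5 TPM. In complex V, the 5 genes of the F1 head, which makes ATP, had a median of 514.1 TPM, the 4 genes of the peripheral stalk 994.3 TPM, and the 6 other subunit genes, 3 of them for the c ring, 1210 TPM. Across the 81 members with a mean of at least 1 TPM, mean TPM and effective length had a Spearman rho of -0.56, given as a description since all genes share the same 4 libraries and TPM divides by that length. Atp5s and Atp5sl stood at a mean of 27.8 and 19.4 TPM, the lowest in complex V, and neither is known as a structural subunit of the enzyme.

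**Figure D2:**
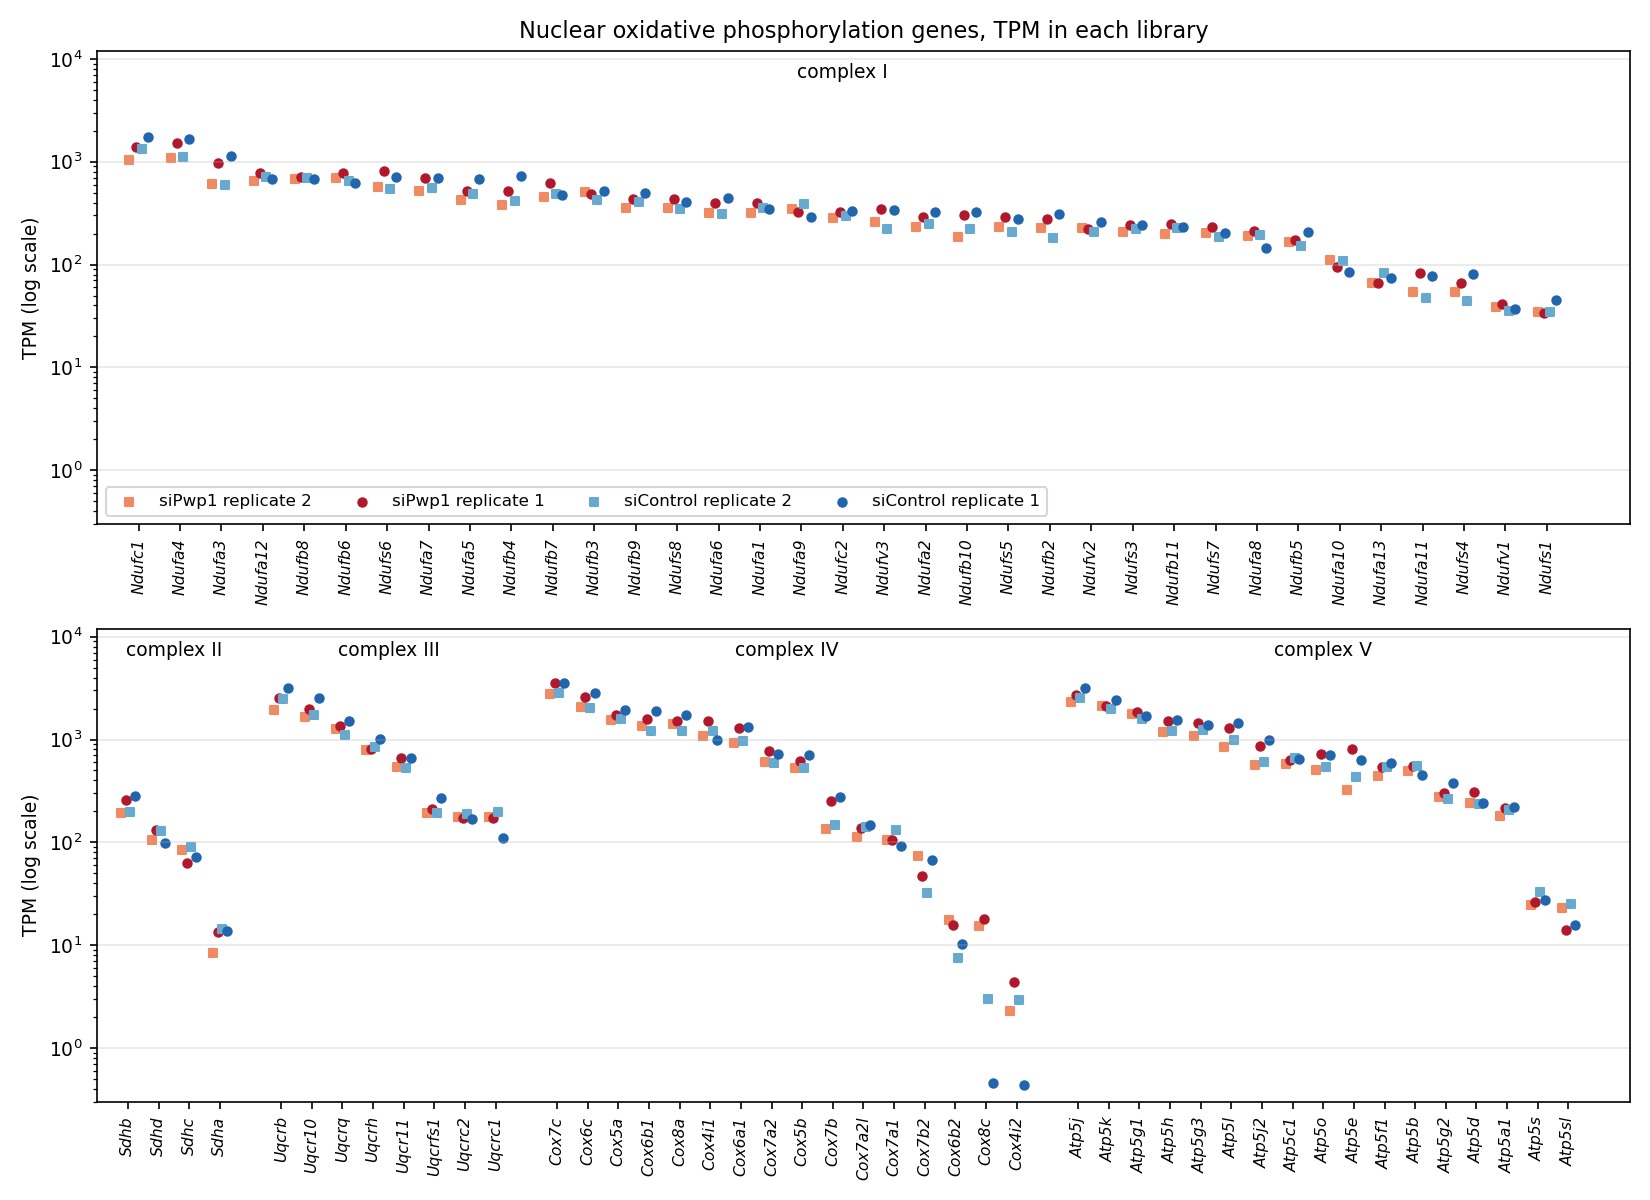
TPM (log scale) of 80 of the 81 tested members in each library, ordered within each complex by mean TPM, with 1 point per library. The genes span from Cox7c at a mean of 3182 TPM to Cox4i2 at 2.52 TPM, and most genes have the 4 libraries close together against that span.

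Several complex IV subunits and the c ring of complex V have paralogs used in particular tissues. Of the muscle isoforms, Cox6a2 had 2 counts in siControl replicate 1 and 0 in the other libraries, and Cox8b had 0 counts in all 4, where 3 counts would be 0.0594 to 0.104 CPM depending on the library. Ndufa4l2, a paralog of Ndufa4, had 7 counts in siPwp1 replicate 1 and 0 elsewhere. These 3 are the members that did not pass the filter. Cox7a1, the other muscle isoform, was present throughout, at 104.6 and 104.9 TPM in siPwp1, against 91.4 and 131.8 TPM in siControl. That was 10.2% and 12.7% of the Cox7a group in siPwp1, against 9.51% and 15.3% in siControl, while Cox7a2, the widely used isoform, held 76.3% and 73.6% in siPwp1, against 75.0% and 68.2% in siControl. The rest was Cox7a2l, known for joining complexes III and IV in supercomplexes.

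The c ring was made up of transcripts of 3 genes whose mature products are the same protein in mammals. Atp5g1 held 51.7% and 56.8% of their TPM in siPwp1, against 49.3% and 51.4% in siControl. Atp5g3 held 39.9% and 34.4% in siPwp1, against 39.8% and 39.995% in siControl, and Atp5g2 the remainder. Cox4i1 held at least 99.7% of its pair with the lung isoform Cox4i2 in every library. Cox6a1 held 99.987% of its pair with Cox6a2 in siControl replicate 1, its lowest share, and Ndufa4 held 99.987% of its pair with Ndufa4l2 in siPwp1 replicate 1, its lowest share.

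Isoforms known from testis were measurable. Cox7b2 stood at 46.9 and 73.5 TPM in siPwp1, against 67 and 32.1 TPM in siControl, which overlap. Its share of the pair with Cox7b was 15.6% and 35.3% in siPwp1, against 19.4% and 17.7% in siControl. Cox6b2, which is also known from sperm, stood at 15.7 and 17.5 TPM in siPwp1, against 10.2 and 7.45 TPM in siControl, with both siPwp1 libraries above both siControl libraries. Cox8c stood at 18.1 and 15.4 TPM in siPwp1, against 0.46 and 2.99 TPM in siControl, again without overlap, and made up 1.19% and 1.08% of the Cox8 group in siPwp1, against 0.0265% and 0.246% in siControl. The main isoform Cox8a held 98.8% and 98.9% in siPwp1, against 99.97% and 99.8% in siControl. The sperm markers summed to 0.950 and 0.232 CPM in siPwp1, against 1.21 and 0 CPM in siControl, which overlap. Among them Prm2 had 13 and 2 counts in siPwp1, against 1 and 0 counts in siControl, and Tnp1 had 10 and 3 counts in siPwp1, against 0 and 0 counts in siControl. Both were higher in siPwp1 without overlap, but neither passed the filter. The gap rests on 2 counts against 1 in Prm2 and on 3 against 0 in Tnp1. Prm1 and Odf1 overlapped and Akap4 was at 0 in all 4 libraries. The part of sperm RNA in the testis isoforms was not tested.

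**Figure D3:**
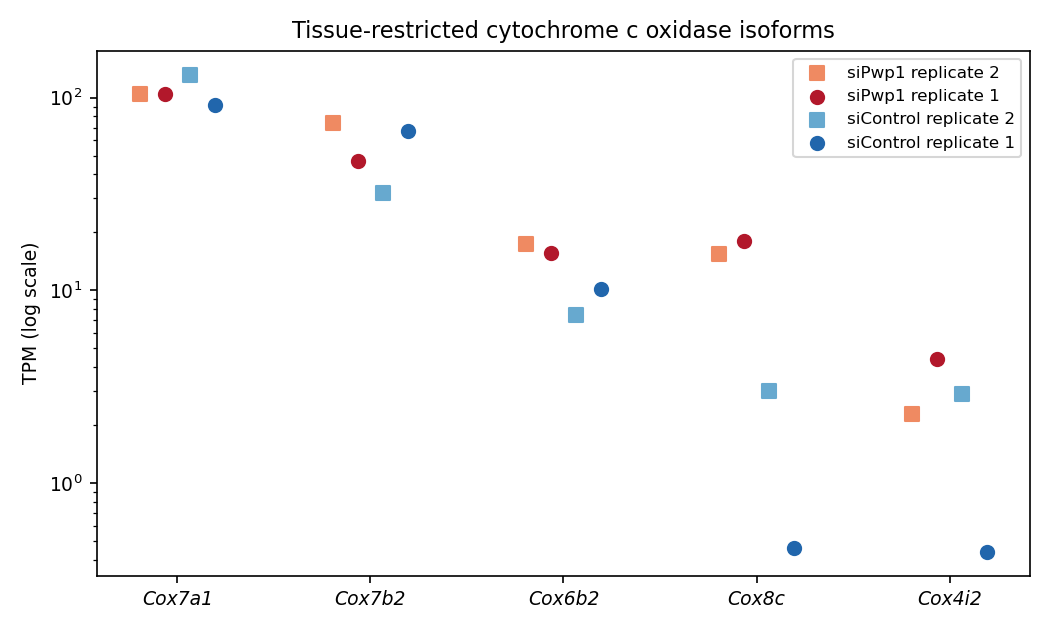
TPM (log scale) of 5 tissue-restricted complex IV isoforms in each library, with 1 point per library. Cox8c and Cox6b2 have both siPwp1 points above both siControl points, while Cox7a1, Cox7b2 and Cox4i2 overlap.

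The comparison of siPwp1 with siControl asks whether targeting Pwp1 altered these transcripts, and it found no member that passed the test. With edgeR, 0 of 81 members had an adjusted p under 0.05, where 0% of all 13585 genes did, and the smallest adjusted p of a member was 0.9998. DESeq2 also called 0 members, against 0.309% of all genes higher and 0.0147% lower. With limma on log2(TPM + 1) it was 0 members and 0% of all genes. At an unadjusted p under 0.05 edgeR had 1 member higher (1.23%) and 0 lower (0%), against 1.84% of all genes higher and 0.824% lower. Both siPwp1 libraries lay above both siControl libraries for 3 members (3.70%) and below them for 5 (6.17%), against 14.7% and 14.1% of all genes. Of the 81 members 57 had a log2 fold change below 0 (70.4%), against 50.1% of all genes tested. The members' median log2 fold change was -0.09, against a median of -0.001 over all genes tested. It was 0.15 without siControl replicate 1, 0.07 without siPwp1 replicate 2, -0.25 without siPwp1 replicate 1 and -0.27 without siControl replicate 2, so its sign depends on which library is left out. The log2 fold change lay within 0.5 of 0 for 78 of the 81 members, with a median SE of 0.28. That count was not made over all genes, so it does not set the members apart from them. A p above the threshold does not show that the groups were alike, and the labels do not say that the 2 libraries of a group came from separate cultures, so each p-value reflects how far these libraries spread, which may be technical.

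Cox8c was the member with the unadjusted p under 0.05. Its position is chromosome 12 from 102899316 to 102900526, plus strand (GENCODE M21, GRCm38), and it had 195 and 94 counts in siPwp1, against 3 and 27 counts in siControl. In CPM it was at 3.86 and 3.12 CPM in siPwp1, against 0.104 and 0.614 CPM in siControl (log2 fold change 3.23, SE 0.95, unadjusted p = 0.0116, edgeR adjusted p = 0.9998). Leaving out siControl replicate 2 gave the only call of a member in this comparison (log2 fold change 5.02, adjusted p = 0.0466), 1 of 81 members (1.23%) against 0.957% of all genes called higher there. In that setting the single control library holds 3 counts, and the siPwp1 mean is 33.5 times its level, with a 95% interval of 11.5 to 162.6 from the exact Poisson interval of the 3 counts, which covers counting error only. Cox6b2 was at 4.2 and 3.82 CPM in siPwp1, against 2.57 and 1.59 CPM in siControl (log2 fold change 0.95, SE 0.56, unadjusted p = 0.137). Cox4i2 was at 2.02 and 0.996 CPM in siPwp1, against 0.208 and 1.27 CPM in siControl (log2 fold change 1.01, SE 1.07), with overlapping groups.

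In complex I the smallest unadjusted p values belonged to 3 accessory subunits. Ndufc1 was at 218.0 and 154.5 CPM in siPwp1, against 288.7 and 199.5 CPM in siControl (log2 fold change -0.39, SE 0.30, unadjusted p = 0.238). Ndufa5 was at 146.2 and 115.2 CPM in siPwp1, against 202.5 and 131.7 CPM in siControl (log2 fold change -0.35, SE 0.30), and Ndufb4 at 100.4 and 70 CPM in siPwp1, against 148.8 and 77.1 CPM in siControl (log2 fold change -0.41, SE 0.38). In all 3 siControl replicate 1 was the highest library, the groups overlapped and none passed the test.

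In complex II, Sdha was at 34.5 and 20.9 CPM in siPwp1, against 36.1 and 35.3 CPM in siControl (log2 fold change -0.37, SE 0.35, unadjusted p = 0.325), without overlap. Sdhc, a membrane anchor, was at 56.3 and 73.2 CPM in siPwp1, against 67.7 and 77.6 CPM in siControl, and Sdhb at 205.1 and 148.5 CPM in siPwp1, against 235.6 and 149.3 CPM in siControl, both overlapping. In complex III, Uqcrb was at 603.9 and 442.0 CPM in siPwp1, against 804.7 and 572.1 CPM in siControl (log2 fold change -0.40, SE 0.28, unadjusted p = 0.202). Uqcrh, the hinge protein, was at 228.6 and 210.8 CPM in siPwp1, against 298.9 and 226.3 CPM in siControl (log2 fold change -0.26, SE 0.25). Uqcr10, a small subunit, was at 356.8 and 286.3 CPM in siPwp1, against 481.8 and 303.2 CPM in siControl (log2 fold change -0.29, SE 0.30). In these 3 genes of complex III the siControl libraries differed from each other by more than the group means did.

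In complex V, Atp5s was at 31.6 and 28.4 CPM in siPwp1, against 34.6 and 37.8 CPM in siControl (log2 fold change -0.27, SE 0.29, unadjusted p = 0.377), without overlap. Atp5f1, subunit b of the peripheral stalk, was at 732.5 and 583.7 CPM in siPwp1, against 832.1 and 703.7 CPM in siControl (log2 fold change -0.22, SE 0.24). Atp5j was at 737.5 and 606.5 CPM in siPwp1, against 890.2 and 663.0 CPM in siControl (log2 fold change -0.21, SE 0.25). Beyond Cox8c, Cox6b2, Sdha and Atp5s, the members without overlap were Ndufb6, higher in siPwp1, and Ndufa13, Uqcrc2 and Atp5c1, lower in siPwp1, which were named after their values were seen. Their log2 fold changes lay between -0.26 for Ndufa13 and 0.16 for Ndufb6, and none passed the test.

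**Figure D4:**
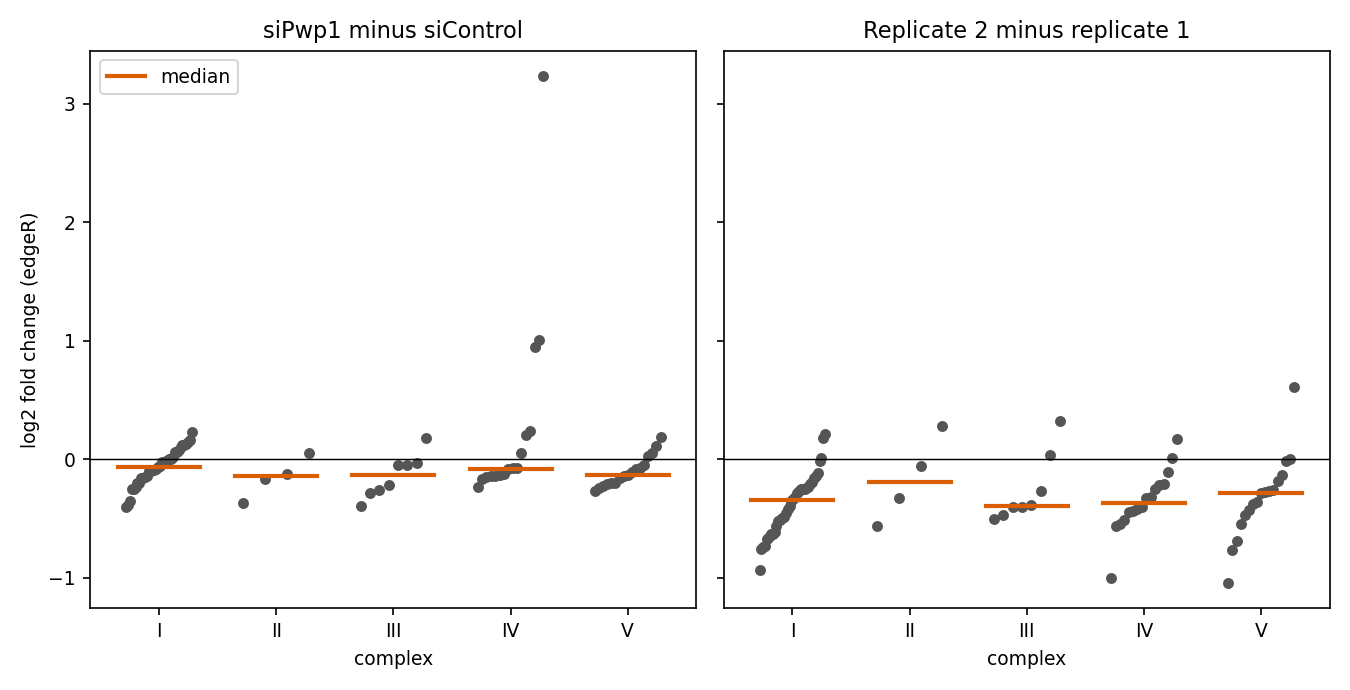
edgeR log2 fold changes of the 81 tested members by complex, on the left siPwp1 minus siControl and on the right replicate 2 minus replicate 1, with 1 point per gene and the median of each complex as a line. On the left the medians lie between -0.14 and -0.06 and Cox8c is the highest at 3.23, while on the right they lie between -0.39 and -0.19.

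Most of these genes were lower in both libraries numbered replicate 2 than in both numbered replicate 1. What a number stands for, such as a shared day or batch, is not given in the sources used here, and both groups have a replicate 1 and a replicate 2. Replicate 2 was below replicate 1 in both groups for 65 of 81 members and above it in both for 4. This count was not made over all genes, whose replicate differences also correlated between the groups (r = 0.32). With each group taken singly, replicate 2 was below in siPwp1 for 76 members and in siControl for 66, against 6786 and 6930 of all 13585 genes. Both replicate 2 libraries lay below both replicate 1 libraries for 61 members (75.3%) and above them for 4 (4.94%), against 25.7% and 24.7% of all genes. The median log2 fold change, replicate 2 minus replicate 1, was -0.34, against -0.01 over all genes tested. Within groups, the members' median log2 difference was -0.34 in siPwp1 and -0.43 in siControl.

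Of the embryo markers, Cdx2 and Gata3, which mark the outer lineage, the trophectoderm, and are named after their values were seen, were also lower in both replicate 2 libraries. Cdx2 had 0.897 and 2.14 CPM in replicate 2 of siPwp1 and siControl, against 5.76 and 15.4 CPM in replicate 1 of the same groups (log2 fold change -2.78, edgeR adjusted p = 0.153). Gata3 had 17 and 22.7 CPM in replicate 2 of siPwp1 and siControl, against 48.1 and 126.3 CPM in replicate 1 of the same groups (log2 fold change -2.13, edgeR adjusted p = 0.132). Of all 9 embryo markers, 4 were lower in both replicate 2 libraries without overlap (44.4%) and 2 were higher (22.2%). Over all genes the shares were 25.7% and 24.7%. Eomes was also lower without overlap, while Tfap2c overlapped. The other marker lower without overlap was Zfp42, with 118.3 and 145.1 CPM in replicate 2 of siPwp1 and siControl, against 152.8 and 156.1 CPM in replicate 1. Tead4 was higher, with 36.9 and 49.1 CPM in replicate 2 of siPwp1 and siControl, against 33.0 and 34.6 CPM in replicate 1. Dppa3 was the other marker higher without overlap. The sperm markers summed to 0.232 and 0 CPM in replicate 2 of siPwp1 and siControl, against 0.950 and 1.21 CPM in replicate 1. The part of these differences in that of the respiratory genes was not tested.

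With the replicate number as the single term, edgeR called 0 of the 81 members, against 0.0368% of all genes, with a smallest adjusted p of 0.0977. At an unadjusted p under 0.05 there were 32 members lower (39.5%) and 0 higher (0%), against 7.43% of all genes lower and 9.22% higher. With group added as a term edgeR called 9 members lower (11.1%) and 0 higher, against 2% of all genes lower and 3.92% higher. These were Ndufa3, Ndufa4, Ndufa11, Ndufb4 and Ndufb10 by symbol in complex I, Cox7b in complex IV, and Atp5e, Atp5j2 and Atp5l in complex V. Ndufa4 is named for complex I, and its product is known as a subunit of complex IV. Ndufb10 lies outside the rule for named genes. DESeq2 with the replicate number alone called 13 lower (16.05%) and 0 higher, against 2.56% of all genes lower and 4.31% higher. With limma on log2(TPM + 1) 0 members were called. Without siPwp1 replicate 1, edgeR called 11 lower (13.6%), against 2.47% of all genes, and without any other single library it called 0.

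Cox7b, a membrane subunit of complex IV that lies on chromosome X from 106015700 to 106022450, had the smallest p, with 93.9 and 103.6 CPM in replicate 2 of siPwp1 and siControl, against 185.2 and 209.6 CPM in replicate 1 of the same groups. Both replicate 2 libraries lay well below both replicate 1 libraries (log2 fold change -0.999, SE 0.17, edgeR adjusted p = 0.0977, and 0.0078 with group as a term). Its testis paralog Cox7b2 had 19.4 and 8.55 CPM in replicate 2 of siPwp1 and siControl, against 13 and 19.5 CPM in replicate 1 of the same groups, which overlap. Cox6a1 had 237.5 and 247.7 CPM in replicate 2 of siPwp1 and siControl, against 346.7 and 371.1 CPM in replicate 1 of the same groups (log2 fold change -0.56, SE 0.15, edgeR adjusted p = 0.176). Cox6c, another small membrane subunit, had 465.1 and 464.4 CPM in replicate 2 of siPwp1 and siControl, against 615.1 and 715.0 CPM in replicate 1 of the same groups (log2 fold change -0.52, SE 0.15). In Cox6a1 and Cox6c, as in Cox7b, the replicate numbers did not overlap.

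In complex I, Ndufa3, an accessory membrane subunit, had 57.1 and 57.7 CPM in replicate 2 of siPwp1 and siControl, against 98.3 and 121.3 CPM in replicate 1 of the same groups (log2 fold change -0.94, SE 0.19, edgeR adjusted p = 0.132, and 0.0169 with group as a term). Ndufa11, known for binding the junction of the membrane arm, had 123.6 and 106.6 CPM in replicate 2 of siPwp1 and siControl, against 195.9 and 188.2 CPM in replicate 1 of the same groups (log2 fold change -0.74, SE 0.17). Ndufa4 had 235.5 and 247.0 CPM in replicate 2 of siPwp1 and siControl, against 347.1 and 401.4 CPM in replicate 1 of the same groups (log2 fold change -0.63, SE 0.16). All 3 were lower in both replicate 2 libraries. Across complex I as placed by symbol, Ndufa4 included, 31 of the 36 tested genes were lower without overlap, among them all 7 core genes. The 2 higher without overlap were Ndufa9 and Ndufa10. The median log2 fold change was -0.25 in the core genes and -0.42 in the others.

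In complex V the F1 subunit epsilon gene Atp5e, on chromosome 2 from 174461072 to 174464105, had 47.5 and 65.3 CPM in replicate 2 of siPwp1 and siControl, against 126.7 and 105.3 CPM in replicate 1 of the same groups. Its difference was the largest of the 81 members (log2 fold change -1.04, SE 0.22, edgeR adjusted p = 0.141, and 0.0169 with group as a term). Atp5j2, the membrane subunit f, had 114.8 and 125.0 CPM in replicate 2 of siPwp1 and siControl, against 186.5 and 221.1 CPM in replicate 1 of the same groups (log2 fold change -0.77, SE 0.17). Atp5l, the membrane subunit g, had 198.6 and 234.9 CPM in replicate 2 of siPwp1 and siControl, against 319.6 and 378.5 CPM in replicate 1 of the same groups (log2 fold change -0.69, SE 0.18). Of the 17 genes in complex V, 13 were lower without overlap, and Atp5sl was higher without overlap, with 26.5 and 28.3 CPM in replicate 2 of siPwp1 and siControl, against 16.8 and 19.1 CPM in replicate 1 of the same groups. The catalytic beta subunit gene Atp5b, named after its values were seen, had 760.0 and 847.6 CPM in replicate 2 of siPwp1 and siControl, against 887.5 and 738.3 CPM in replicate 1 of the same groups, which overlap.

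In complexes II and III some genes lay on the other side. In complex III, 6 of 8 genes were lower without overlap, among them Uqcr10 with 286.3 and 303.2 CPM in replicate 2 of siPwp1 and siControl, against 356.8 and 481.8 CPM in replicate 1 of the same groups (log2 fold change -0.51, SE 0.19, edgeR adjusted p = 0.251), Uqcr11, a small subunit (log2 fold change -0.40, SE 0.17), and Uqcrb (log2 fold change -0.47, SE 0.20). Uqcrc1 had 235.7 and 260.0 CPM in replicate 2 of siPwp1 and siControl, against 237.3 and 157.9 CPM in replicate 1 of the same groups, which overlap. In complex II, Sdhb had 148.5 and 149.3 CPM in replicate 2 of siPwp1 and siControl, against 205.1 and 235.6 CPM in replicate 1 of the same groups and was lower without overlap (log2 fold change -0.57, SE 0.17, edgeR adjusted p = 0.186), while Sdhc had 73.2 and 77.6 CPM in replicate 2 of siPwp1 and siControl, against 56.3 and 67.7 CPM in replicate 1 of the same groups and was higher without overlap (log2 fold change 0.28, SE 0.20). Sdha had 20.9 and 35.3 CPM in replicate 2 of siPwp1 and siControl, against 34.5 and 36.1 CPM in replicate 1 of the same groups, which overlap.

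Most of these genes are short, and among other genes the shortest were also lower in replicate 2. The median effective length, which RSEM corrects for fragment length, was 383.5 bases in the 81 members and 2393 bases in all genes tested, and 64 members were under 1000 bases. Under 300 bases the median log2 fold change, replicate 2 minus replicate 1, was -0.47 in 35 members and -0.33 in 209 other genes, and 30 members and 52.2% of the other genes were lower without overlap. Those others include 33 ribosomal protein genes, and without them the median was still -0.33. From 300 to 500 bases it was -0.38 in 15 members and -0.25 in 360 other genes. From 500 to 1000 bases it was -0.26 in 14 members and -0.09 in 1408 other genes. From 1000 to 2000 bases it was -0.05 in 13 members and 0.08 in 3520 other genes. From 2000 bases up it was -0.30 in 4 members and -0.01 in 8007 other genes. The members' median lay below that of other genes in each of the 5 length ranges, while among other genes the median did not go on rising above 2000 bases. The part of length in their difference was not tested. Over the members, length and the log2 fold change had a Spearman rho of 0.42, and over all genes tested -0.004, given as descriptions of genes measured in the same 4 libraries.

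**Figure D5:**
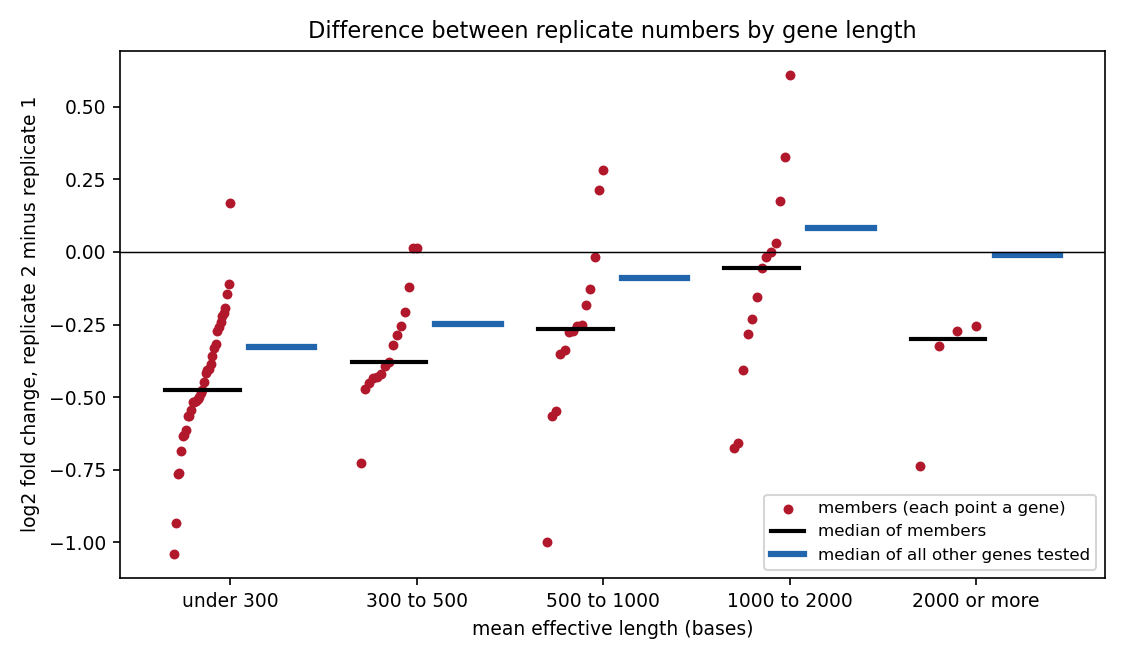
edgeR log2 fold change, replicate 2 minus replicate 1 (vertical axis), by range of mean effective length in bases, with 1 point per member, the members' median as a black line and the median of all other genes tested as a blue line. The black line lies below the blue one in every range, at -0.47 against -0.33 under 300 bases.

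Promoters are shown for 5 of the genes, 1 per complex, because nuclear respiratory genes are known to share binding motifs of NRF1, of the ETS factor GABP and of YY1. RefSeq promoters on GRCm38.p6, running from 250 bases before the start site to 50 after it, matched 69 of the 84 members. On either strand, the NRF1 letters, GCGCA and GCGC with 1 base of any kind between them, were in 17 of them (24.6%). The share was 5.19% of all 27025 genes with a promoter and 11.2% of the 10314 tested genes with one. The YY1 letters AANATGGC were in 18 (26.1%), against 6.96% of all and 9.83% of tested genes. The ETS letters CCGGAAGT were in 5 (7.25%), against 4.31% of all and 8.84% of tested genes. In each complex the promoter printed is that of the member with the smallest p by replicate number that holds any of the 3, with the match in capitals, 5′ to 3′ on the gene's strand, and the start site follows the first 250 bases. Ndufa3 (chr7:3617123-3617422, plus strand) holds a YY1 match that begins at base 273, Cox7b (chrX:106015450-106015749, plus strand) one at base 286 and Atp5j2 (chr5:145191492-145191791, minus strand) one at base 274, all after the start site. Sdha (chr13:74350191-74350490, minus strand) holds 3 NRF1 matches, which begin at bases 153, 196 and 241, and Uqcr11 (chr10:80406772-80407071, minus strand) holds an ETS match at base 185.
Ndufa3: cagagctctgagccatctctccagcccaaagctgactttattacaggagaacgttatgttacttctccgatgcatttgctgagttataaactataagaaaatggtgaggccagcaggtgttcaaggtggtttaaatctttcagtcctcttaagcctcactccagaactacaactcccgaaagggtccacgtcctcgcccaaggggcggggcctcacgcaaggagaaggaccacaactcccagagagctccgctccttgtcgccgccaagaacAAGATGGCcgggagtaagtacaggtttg
Sdha: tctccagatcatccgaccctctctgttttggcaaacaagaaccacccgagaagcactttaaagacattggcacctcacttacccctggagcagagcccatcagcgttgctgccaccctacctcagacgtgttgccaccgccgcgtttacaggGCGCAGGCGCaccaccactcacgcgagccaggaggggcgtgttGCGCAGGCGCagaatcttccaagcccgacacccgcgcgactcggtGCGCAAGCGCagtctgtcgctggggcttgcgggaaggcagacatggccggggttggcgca
Uqcr11: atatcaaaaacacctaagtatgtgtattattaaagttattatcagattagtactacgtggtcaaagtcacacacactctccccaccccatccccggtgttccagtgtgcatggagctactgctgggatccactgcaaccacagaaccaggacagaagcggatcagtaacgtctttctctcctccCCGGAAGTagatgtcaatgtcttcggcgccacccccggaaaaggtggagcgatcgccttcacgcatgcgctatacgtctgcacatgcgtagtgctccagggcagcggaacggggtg
Cox7b: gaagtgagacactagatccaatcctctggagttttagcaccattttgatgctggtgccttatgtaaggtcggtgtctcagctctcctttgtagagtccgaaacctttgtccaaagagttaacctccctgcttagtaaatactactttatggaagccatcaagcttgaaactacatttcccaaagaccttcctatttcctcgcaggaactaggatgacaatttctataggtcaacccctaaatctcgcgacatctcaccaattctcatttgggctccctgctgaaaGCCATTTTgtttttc
Atp5j2: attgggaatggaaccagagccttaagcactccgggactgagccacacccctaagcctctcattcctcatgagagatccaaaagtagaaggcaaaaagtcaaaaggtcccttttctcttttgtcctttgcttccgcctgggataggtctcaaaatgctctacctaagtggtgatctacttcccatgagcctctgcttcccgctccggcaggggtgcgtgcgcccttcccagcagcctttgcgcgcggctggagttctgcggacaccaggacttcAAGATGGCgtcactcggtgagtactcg

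A match describes letters in these windows and shows neither a bound site nor a cause. The median log2 fold change by replicate number was -0.47 in members with the NRF1 letters and -0.32 in those without. It was -0.40 with and -0.34 without the ETS letters, and -0.35 with and -0.33 without the YY1 letters.

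Other genes of respiration were compared between siPwp1 and siControl as lists, and edgeR called 0 genes in any of them, with 1 assembly factor higher and 1 citric acid cycle gene lower at an unadjusted p under 0.05. Of 47 tested assembly factors, which build the complexes without staying in them, the median log2 fold change was -0.09, and 11 were lower without overlap (23.4%) and 3 higher (6.38%), against 14.1% and 14.7% of all genes. Ecsit, an assembly factor of complex I, had 20.5 and 21.3 CPM in siPwp1, against 6.04 and 13.3 CPM in siControl without overlap (unadjusted p = 0.048), and Tmem126b, of the same complex, had 19.7 and 21.7 CPM in siPwp1, against 28.9 and 32.4 CPM in siControl without overlap (unadjusted p = 0.11). The 17 genes of pyruvate dehydrogenase and the citric acid cycle, which supply NADH and succinate, had a median of -0.28, with 16 below 0, and 4 were lower without overlap (23.5%), against 14.1% of all genes. Fh1, fumarate hydratase, had 36.1 and 29.1 CPM in siPwp1, against 67.9 and 46.4 CPM in siControl (unadjusted p = 0.038), and Sucla2, a subunit of succinyl-CoA ligase, had 273.5 and 300.3 CPM in siPwp1, against 391.7 and 417.1 CPM in siControl (unadjusted p = 0.066), both lower in siPwp1 without overlap.

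Of 13 tested genes that maintain or transcribe mitochondrial DNA, the median was -0.11. Without overlap, 2 were lower (15.4%) and 1 higher (7.69%), against 14.1% and 14.7% of all genes. Ssbp1, which binds single-stranded mitochondrial DNA, had 295.0 and 301.0 CPM in siPwp1, against 399.1 and 379.9 CPM in siControl, and Lrpprc, which stabilises mitochondrial mRNA, had 95.9 and 86.2 CPM in siPwp1, against 143.6 and 100.7 CPM in siControl, both without overlap. Of 8 tested regulators of respiratory genes the median was 0.08, and 2 were lower without overlap (25%) and 0 higher. Esrra, an orphan nuclear receptor, had 2.36 and 4.05 CPM in siPwp1, against 5.38 and 4.21 CPM in siControl, and Yy1 had 104.0 and 104.9 CPM in siPwp1, against 122.2 and 110.3 CPM in siControl, both without overlap. Cycs, somatic cytochrome c, had 709.4 and 618.8 CPM in siPwp1, against 812.7 and 652.1 CPM in siControl, which overlap, and Cyc1, cytochrome c1 of complex III, which the symbol rule does not take in, had 138.3 and 97.2 CPM in siPwp1, against 148.8 and 129.5 CPM in siControl, also overlapping. By replicate number the list medians were -0.10 for assembly factors, -0.14 for pyruvate dehydrogenase and the citric acid cycle, -0.10 for mitochondrial DNA genes and 0.04 for regulators, and -0.34 for the 3 genes of cytochrome c and cytochrome c1, all 3 lower in replicate 2 without overlap. The median of the 81 subunit genes was also -0.34.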

How the data were processed

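Polyadenylated RNA was measured in 4 libraries of 10 morulae each, 2 per group by the labels. Per the submitters' processing notes STAR 2.7.10, RSEM 1.3.3 and mm10 were used. The authors deposited RSEM expected counts, TPM and FPKM per gene, per the file headers, while neither the annotation nor the strand setting is given in the sources used here. Expected counts were rounded and tested with edgeR 4.0.16 (filterByExpr with a minimum count of 10, TMM, quasi-likelihood test, Benjamini-Hochberg adjustment, threshold 0.05) in R 4.3.3, with group, or replicate number, as the single term. log2 values and CPM were computed from the deposited counts. TPM deposited by the authors was used for levels between genes. FPKM deposited by the authors was also summed, but its share of a library equals that of TPM by construction, so it is no separate check. The fits were tested on simulated data.

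Totals of 28981358 to 48765229 counts make 3 counts 0.0594 to 0.104 CPM, and such floors cover counting error only. Alternatives were filters, scaling, DESeq2 1.42.0, limma 3.58.1 on log2(TPM + 1) and log2(TPM + 0.1), leaving out each library, and both terms together. Without a known strand setting, reads of the 25 members with an exon overlap on the opposite strand (GENCODE M21, GRCm38) cannot be told apart from their partner's, and Cox7c, Ndufs5 and Uqcrc2 had fractional counts, which RSEM gives where reads are shared. Pwp1 was named first. In each complex the 3 genes of smallest p by group and by replicate number, the highest and lowest by TPM, the isoform groups and any called gene were named, and in each other list the 2 of smallest p by group. 1 gene that this rule takes in is not reported here. The members and lists were chosen with earlier results of these data known.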

Additional observations from a re-analysis of the deposited data

How the results depend on the processing

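In the comparison of siPwp1 with siControl, 0 members were called lower under every alternative, and 0 to 1 higher when each library was left out, the 1 being Cox8c without siControl replicate 2, where 130 of all genes were called higher. By replicate number, members called lower numbered 13 with the DESeq2 Wald test (348 of all 13585 genes), 9 with group as a term (272 genes) and 9 with no filter (390 of 18613 genes), and 0 to 11 when each library was left out, with 11 without siPwp1 replicate 1 (336 genes). The cause was not tested. The median log2 fold change by replicate number stayed below 0 under every alternative, at -0.38 with a filter of 5 CPM, -0.38 with library totals alone, -0.36 with no filter, -0.26 with limma on log2(TPM + 1) and -0.26 on log2(TPM + 0.1), and -0.43 to -0.29 when each library was left out. The median of all genes moved with limma on TPM, to 0.08 and 0.09, against -0.01 with edgeR. In place of TPM, CPM put 1.81% of expression in the members in siPwp1 and 1.86% in siControl, since CPM does not divide by length.

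With the replicate number as a block, the comparison of siPwp1 with siControl called 0 members and 71 genes higher and 9 lower of all genes, against 0 without it. With the block, the members of smallest unadjusted edgeR p were Cox8c (0.0021, higher in siPwp1), Uqcrb (0.0204, lower) and Ndufc1 (0.0345, lower). Their edgeR adjusted p values were 0.159, 0.416 and 0.475. The differences between replicate numbers correlated across genes between the groups (r = 0.32 over 13585 genes, 0.16 over 81 members), but with 2 pairs this does not show that the numbers pair the libraries. Where a library was left out, the lone library of its group is assumed to vary like the others. Depth limits Cox8c, Cox4i2 and Cox6b2, which had at most 212 counts in a library.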

Other observations

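The assembly factors lay on both sides of 0 by replicate number. Both replicate 2 libraries were above both replicate 1 libraries for 11 of 47 (23.4%) and below for 19 (40.4%), against 24.7% and 25.7% of all genes and 4 and 61 of the 81 subunit genes. The 3 genes given here were named after their values were seen. Uqcc1, an assembly factor of complex III, had 78.5 and 75.9 CPM in replicate 2 of siPwp1 and siControl, against 43.1 and 40.5 CPM in replicate 1. Uqcc2, its partner in the same complex, had 30.5 and 34 CPM in replicate 2 of siPwp1 and siControl, against 57.2 and 53.4 CPM in replicate 1. Tmem70, an assembly factor of complex V, had 341.8 and 335.5 CPM in replicate 2 of siPwp1 and siControl, against 217.1 and 226.1 CPM in replicate 1. Uqcc1 and Tmem70 were higher in replicate 2, and Uqcc2 lower, with edgeR adjusted p = 0.142, 0.161 and 0.175 in the order Uqcc1, Tmem70, Uqcc2, none of which passed the threshold.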
